A study of Mus musculus with 12 samples.

Results

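Arid1a mutant and wild-type mouse yolk sacs were compared at embryonic day 8.5 (E8.5), on 6 of the 12 arrays of the series, chosen as those whose labels give that stage. The mutant group held 3 samples homozygous for Arid1a V1068G, a point mutation in a gene also called Baf250a, and the wild-type group held 3 samples. Both genotypes were labelled with the background strain CD1. Every array carried the RNA of a yolk sac sample in Cy5 and a common reference in Cy3, drawn from whole wild-type neonates of mixed 129Sv and C57BL/6 background. The other 6 arrays held the same 2 genotypes at E9.5. The replicates are labelled biological, but single yolk sacs or pools are not specified, so p-values measure the spread between these samples.

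Arid1a encodes a subunit of the SWI/SNF (BAF) complex, which uses ATP to move nucleosomes and so opens or closes DNA to transcription factors. The subunit carries an AT-rich interaction domain that binds DNA, and V1068G lies in that domain. The yolk sac has an outer visceral endoderm, an absorptive epithelium that makes plasma proteins before the liver does, and an inner mesoderm, which gives rise to mesothelium, vessels and the first red cells, megakaryocytes and macrophages. The comparison asks which transcripts and which pathways differ in this tissue when the DNA-binding subunit is mutated.

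Each value below is a log2 ratio of yolk sac to reference RNA on 1 array, given in the order of replicates 1, 2 and 3. Each difference is the mutant minus the wild-type mean of 3 arrays each, with a standard error (SE) whose spread was pooled over the 12 arrays of both stages. Adjusted p-values are those of limma over all genes tested, and a gene rose or fell if its adjusted p was under 0.05. On the E8.5 arrays, 46.7% to 49.2% of probes were well above background in Cy5, and the number of arrays limits the precision, with a median SE of 0.0674. Most markers of the yolk sac's own layers were present on all 6 arrays, among them 10 of 12 mesoderm and mesothelium markers. All 15 visceral endoderm markers and all 11 endothelial markers were well above background on each of the 6 arrays. So were the 9 primitive erythroid markers matched by name, which leave out Eraf, described below.

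Libraries stood apart in several ways, some within a group and some, among sex-linked genes, along the groups. Wild-type replicate 2 was rich in heart markers. Its Cy5 intensity summed over the 16 heart markers on the array was 6324, against 3943 to 4276 on the other 5 arrays. Neural and somite markers were highest there too. Mutant replicate 3 was rich in trophoblast markers, led by the placental hormone gene Prl4a1 at 5.70 against 0.54 to 1.53. The sum over the 22 trophoblast markers on the array, of which 8 were tested, was 8994 against 1948 to 2319. Xist, the RNA of the inactive X chromosome, stood at -4.02 and -4.17 in mutant replicates 2 and 3 and between -1.76 and -0.67 on the other 4 arrays. The Y-linked Eif2s3y stood at -0.40, -0.67 and -0.56 in the wild type and at -0.049, 0.12 and 0.40 in the mutant, and Ddx3y was also higher on each mutant array (0.15 to 0.48) than on each wild-type array (-0.22 to 0.062). Sex is not labelled, and its part in the results was not tested. Decidual markers summed to 1808 to 2379, with 8 of 14 well above background on all 6 arrays and 5 on none. Maternal leukocyte markers summed to 1498 to 1647, with 6 of 20 well above background on all 6 arrays and 10 on none. The decidual marker Prl8a2 was uneven within both groups, at 2.36, 1.77 and 3.17 in the wild type and 0.69, 2.38 and 3.53 in the mutant. The 12 arrays were scanned in 3 sets of 4, the set being the replicate number, with 1 array of each group per set, so the difference within a scan can be read from the values of one replicate number. Each group kept its own place on the slide, and the place and the group cannot be told apart. The headers carry 2 slide barcodes, replicates 2 and 3 sharing one.

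**Figure D1:**
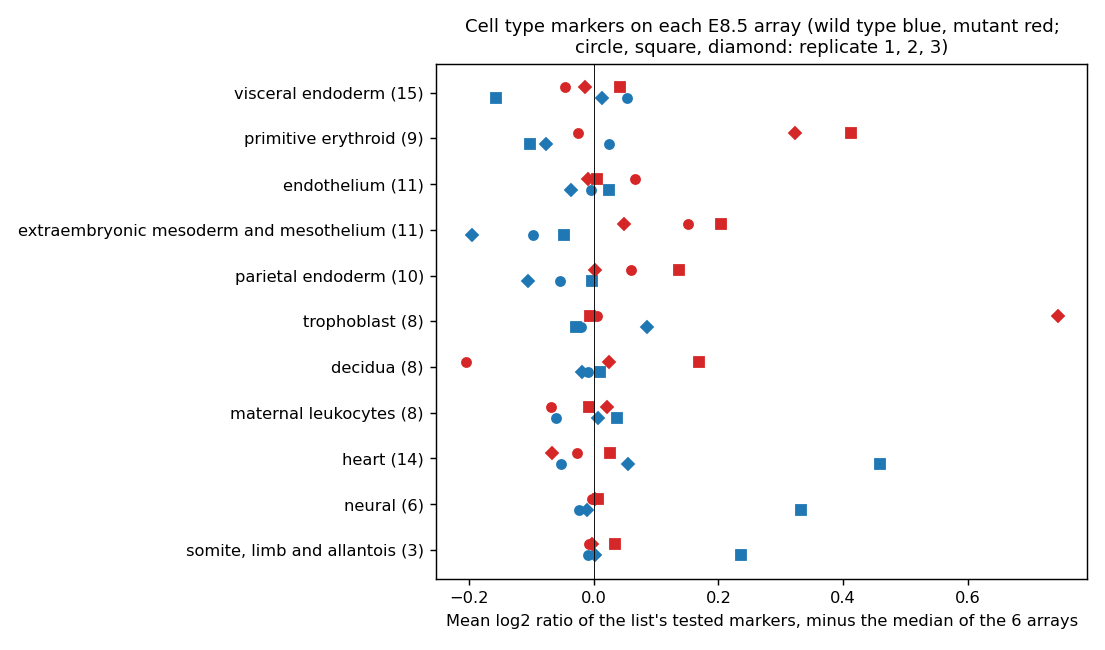
Mean log2 ratio of each marker list on the 6 E8.5 arrays, relative to the median of those arrays, with wild type in blue and mutant in red. Each mean covers all markers of the list on the array, although the axis names the tested ones. Brackets give the number tested, which is smaller for some lists (trophoblast 8 of 22, neural 6 of 16, somite 3 of 14). Heart, neural and somite markers are high in wild-type replicate 2 and trophoblast markers in mutant replicate 3, while mesodermal and parietal endoderm markers lie higher on all 3 mutant arrays than on all 3 wild-type arrays.

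Of 13894 genes tested, 99 rose and 101 fell in the mutant, together 1.44% (0.713% and 0.727%). Most changes were small: the median size was 0.39 on the log2 scale, or 1.31-fold, 151 of the 200 were below 0.5, and 6 reached 2-fold. Pf4 rose the most, by 2.40-fold, and Hspa1a fell the most, by 4.0-fold. For each of the 200 the mutant values lay wholly above or below the wild-type values, a pattern found in 17.9% of all genes tested. The count was 125 without wild-type replicate 1, 204 without wild-type replicate 2, 108 without wild-type replicate 3, and 112, 93 and 104 without mutant replicates 1, 2 and 3. It was 127 without the heart-rich and the trophoblast-rich arrays together. With each array centred on its median and no loess, 10 genes passed, 2 higher and 8 lower, and when Xist entered the model 25 passed, 8 higher and 17 lower. Every one of the 200 kept its direction under both.

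**Figure D2:**
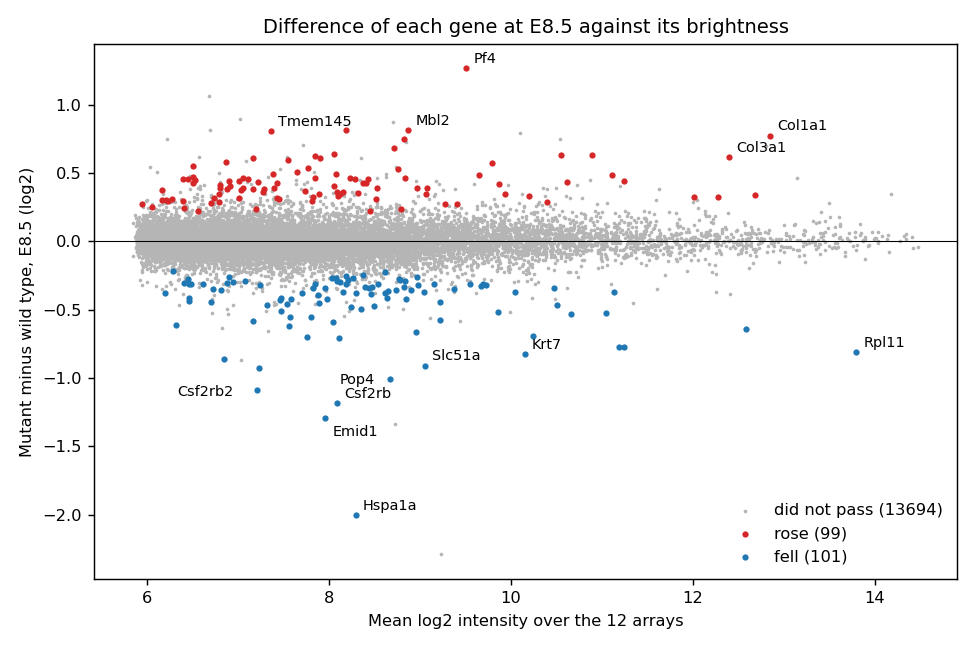
Difference between mutant and wild type at E8.5 (log2, vertical) against mean log2 intensity (horizontal) for the 13894 genes, with the 99 that rose in red, the 101 that fell in blue and the rest in grey. Most of the 200 lie between 0.2 and 0.5 from 0, and Pf4 and Hspa1a lie farthest out.

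A set of 7 named genes passed under all 20 alternative settings, and 5 of them fell. Emid1, a secreted protein with an EMI domain and collagen repeats, stood at 1.65, 1.23 and 1.59 in the wild type and at 0.34, 0.16 and 0.085 in the mutant. It fell by 1.29 ± 0.09 (limma adjusted p = 9.58e-06), several times the spread within either group. Csf2rb, the beta chain shared by the receptors for GM-CSF, interleukin 3 and interleukin 5, stood at 1.26, 1.17 and 1.69 in the wild type and at 0.24, 0.34 and -0.0032 in the mutant. Csf2rb2, its neighbouring paralogue that serves interleukin 3, stood at 0.75, 0.57 and 1.07 against -0.39, -0.087 and -0.40. They fell by 1.18 ± 0.13 and 1.09 ± 0.12 (limma adjusted p = 0.00027 and 0.000385), but the paralogues are alike in sequence and their probes may each read both. A dimmer second probe of Csf2rb gave 0.0095, and the mean of its probes fell by 0.59. Of 69 changed genes with another measured probe, Csf2rb alone had none of the same sign. Slc51a, the alpha subunit of the organic solute transporter that exports bile acids, stood at -0.62, -0.49 and -0.73 against -1.51, -1.56 and -1.49. Serpinb1a, an intracellular inhibitor of neutrophil proteases, stood at -2.76, -2.83 and -2.78 against -3.45, -3.33 and -3.59. The 2 that rose were Pf4 and Tmem145, the latter a membrane protein at -1.51, -1.39 and -1.55 in the wild type and -0.73, -0.61 and -0.70 in the mutant.

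Other large changes held without each of the 6 arrays in turn. Rpl11, a large-subunit ribosomal protein that also binds Mdm2, stood at 0.79, 0.64 and 0.84 in the wild type and at -0.12, -0.054 and 0.00055 in the mutant, and fell by 0.81 ± 0.06 (limma adjusted p = 9.58e-06). Its second probe gave -0.34, and ribosomal protein genes have many near-copies that a probe may also read. Aif1l, an actin-bundling protein, fell by 0.71 ± 0.08, Ppp1r14d, an inhibitor of protein phosphatase 1, by 0.70 ± 0.09, Fxyd6, a regulator of the sodium pump, by 0.69 ± 0.09 (dimmer other probe -0.11, mean of probes -0.40) and Sec14l4, a lipid-binding protein, by 0.62 ± 0.08. Among the rises, Leap2, a liver and gut peptide, stood at -1.93, -1.87 and -1.76 against -1.17, -1.24 and -1.33, a rise of 0.61 ± 0.07 (limma adjusted p = 0.000282). Cbln1, a secreted C1q-family protein, rose by 0.60 ± 0.08 (dimmer other probe 0.17, mean of probes 0.38) and Ccdc68, a centrosomal protein, by 0.64 ± 0.09.

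**Figure D3:**
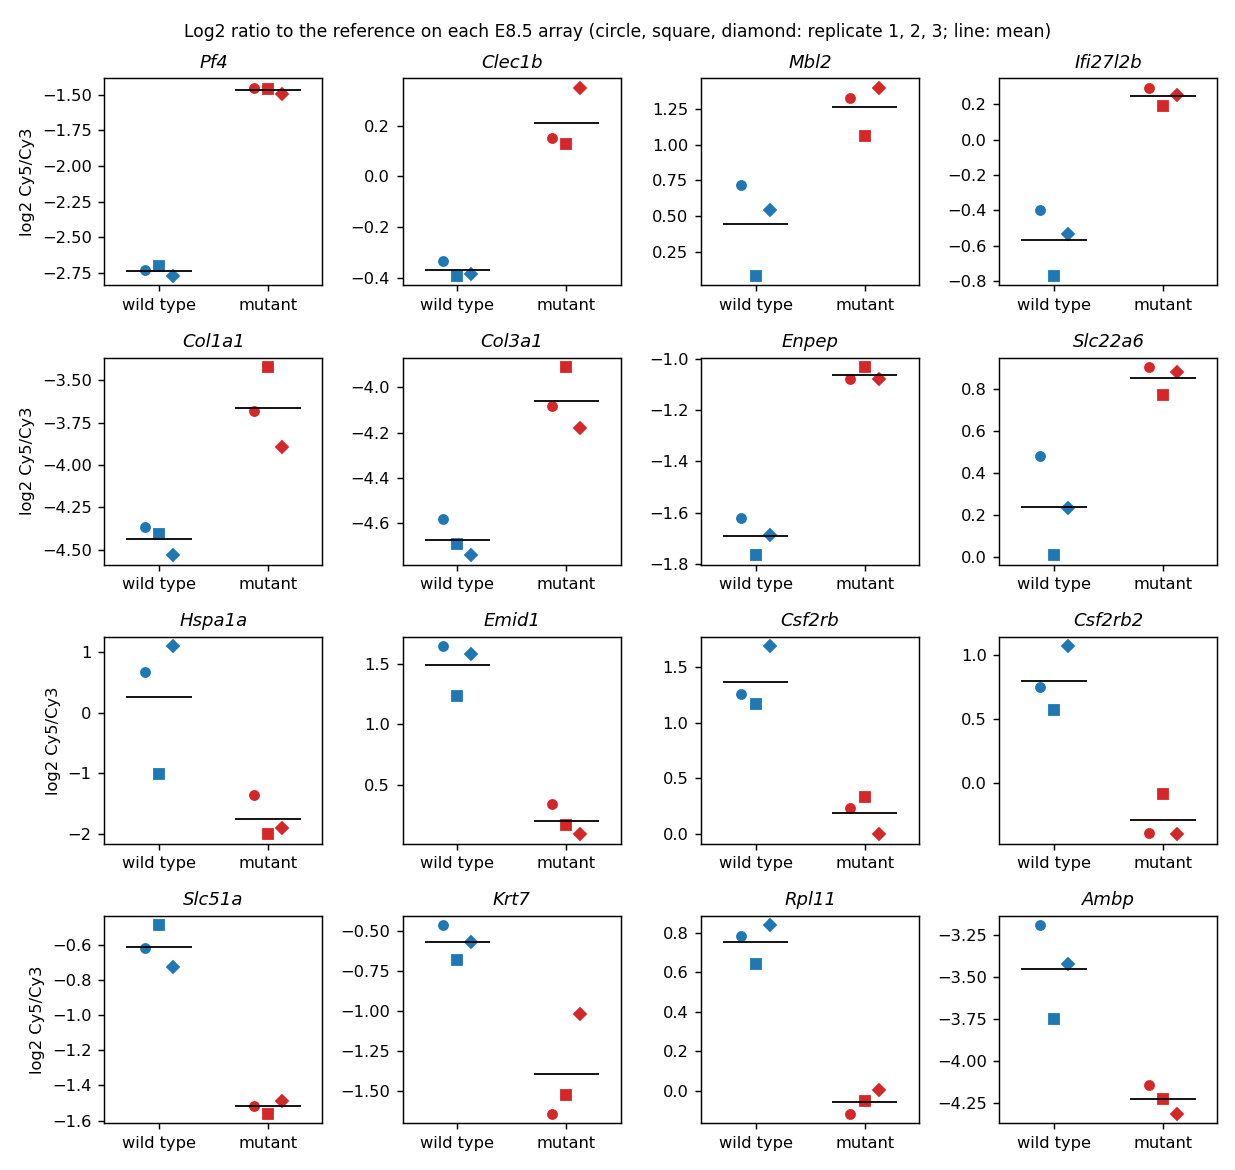
Log2 ratio to the reference on each E8.5 array for 16 genes that rose (upper 8 panels) or fell (lower 8 panels), with wild type in blue, mutant in red, replicates 1, 2 and 3 as circle, square and diamond and the group mean as a line; each panel has its own axis. The groups do not overlap in any panel, and the wild-type arrays of Hspa1a spread from -1.01 to 1.09.

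To look at whole pathways, 62 gene lists were read against the background of 1.44%. The lists were chosen with earlier results of these data known. Here and below, a share above the background is therefore a description of a list and not a test of it. They held 2277 distinct measured genes, of which 32 rose and 26 fell (2.55%). No member passed in 27 lists, 1 member in 20, 2 in 7, and at least 3 in 8. The medians of 60 of the 62 lists lay within 0.1 of 0, where the median of all genes was 0.0019. The 2 others were the platelet list and the red cell list, and both lay above 0. With the Feature Extraction log ratio their medians were 0.35 and 0.21, and interferon (0.22), coagulation (0.20), iron and haem (0.15) and collagen genes (0.11) also passed 0.1. Retinoid genes lay at -0.11 in that setting. In whole tissue, fewer cells of a type and less RNA per cell cannot be told apart.

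**Figure D4:**
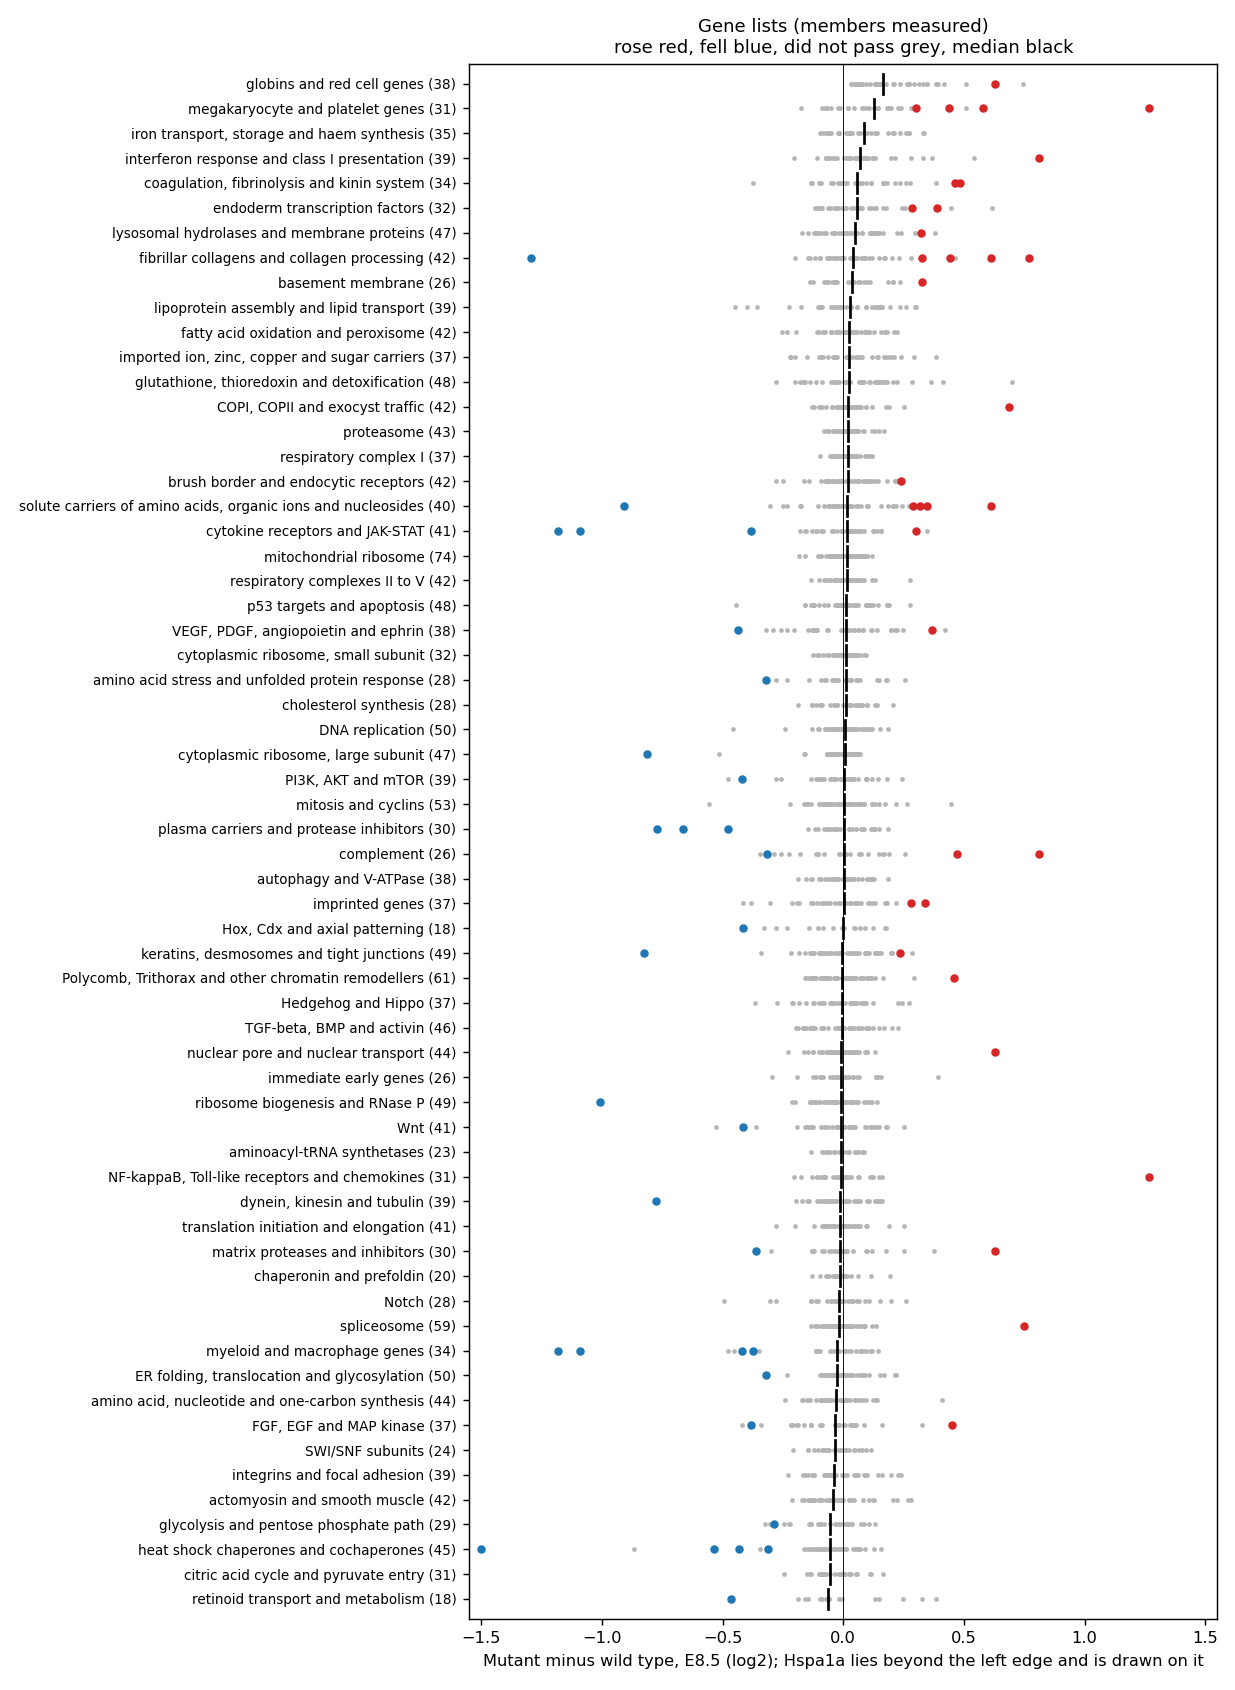
Difference between mutant and wild type at E8.5 (log2, horizontal) for every measured member of the 62 lists, ordered by list median (black bar), with members that rose in red, those that fell in blue and the others in grey. Most lists are narrow clouds around 0 with single members far out, the red cell list lies wholly above 0, and heat shock and myeloid members reach far to the left; Hspa1a lies beyond the left edge and is drawn on it.

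Megakaryocyte and platelet genes had 4 of 31 measured members higher (12.9%, against a background of 0.713% for rises) and none lower, with a median of 0.13. Pf4, the chemokine of platelet alpha granules, stood at -2.73, -2.70 and -2.77 in the wild type and at -1.45, -1.46 and -1.49 in the mutant, and rose by 1.26 ± 0.12 (limma adjusted p = 0.000129). The SD among wild-type arrays was 0.035 and among mutant arrays 0.021. Clec1b, the platelet receptor for podoplanin, stood at -0.33, -0.39 and -0.38 against 0.15, 0.13 and 0.35 and rose by 0.58 ± 0.08 (limma adjusted p = 0.0019). Treml1, a receptor of platelet granules, rose by 0.44 ± 0.08, and its call ended without wild-type replicate 1 (0.40) or mutant replicates 1 (0.44) or 2 (0.39). The list's median was 0.13, 0.12 and 0.071 within the 3 scans. The promoters of the 2 leading genes are shown because they moved together, as the 250 bases before the start site (RefSeq, GRCm38.p6, 5′ to 3′), with TGATAA or its reverse complement TTATCA, the core letters read by GATA factors, in capitals.
Pf4, chr5:90772185-90772434, plus strand: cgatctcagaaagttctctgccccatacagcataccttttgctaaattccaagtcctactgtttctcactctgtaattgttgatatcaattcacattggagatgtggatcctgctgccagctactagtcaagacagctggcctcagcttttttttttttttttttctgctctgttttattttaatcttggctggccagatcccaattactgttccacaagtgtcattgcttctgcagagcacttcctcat
Clec1b, chr6:129397047-129397296, plus strand: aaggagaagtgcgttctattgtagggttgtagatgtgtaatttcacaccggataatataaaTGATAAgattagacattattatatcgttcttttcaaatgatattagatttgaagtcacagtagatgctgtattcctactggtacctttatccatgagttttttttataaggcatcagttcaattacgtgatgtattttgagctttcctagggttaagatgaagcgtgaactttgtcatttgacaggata
Clec1b held 1 match, starting 189 bases before the start site, and Pf4 and Treml1 held none in this window. These letters occurred in 3.97% of the 12535 windows of tested genes.

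The red cell list lay above 0 in all 38 measured members, with a median of 0.16, but only Eraf passed (2.63%). Eraf is the array's name for the stabilizing chaperone of alpha haemoglobin. It stood at 0.055, -0.17 and -0.022 in the wild type and at 0.40, 0.62 and 0.74 in the mutant, a rise of 0.63 ± 0.14 (limma adjusted p = 0.0371) whose call ended without any array other than mutant replicate 1 (0.55 to 0.68). The list's median was -0.012 in scan 1, 0.37 in scan 2 and 0.24 in scan 3. It was 0.038 when Xist entered the model, mutant replicates 2 and 3 being the arrays of low Xist. The part of those arrays' other differences in this shift was not tested. Iron transport and haem synthesis genes had a median of 0.084 over 35 members and none passed; the lowest p belonged to Iscu, the scaffold for iron-sulphur clusters (0.21 ± 0.05, limma adjusted p = 0.0801).

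Cytokine receptor and JAK-STAT genes had 3 of 41 members lower and 1 higher (9.76% called), with a median of 0.017. Besides Csf2rb and Csf2rb2, Il10rb, a chain of the interleukin 10 and 22 receptors, stood at -1.41, -1.57 and -1.44 against -1.84, -1.91 and -1.81, and fell by 0.38 ± 0.07. Its call ended without wild-type replicates 1 (-0.35) or 3 (-0.37) or mutant replicate 2 (-0.36). Myeloid and macrophage genes had 4 of 34 members lower and none higher (11.8%, against 0.727% for falls), with a median of -0.024. The members were Csf2rb, Csf2rb2, Pik3cd and Lyve1. Pik3cd, the leukocyte isoform of the PI3-kinase catalytic subunit, fell by 0.42 ± 0.08, and its call ended without wild-type replicates 1 (-0.38) or 3 (-0.37) or mutant replicates 2 (-0.41) or 3 (-0.39). Lyve1, a hyaluronan receptor of yolk sac macrophages and endothelium, stood at 0.42, 0.24 and 0.38 against 0.11, 0.030 and -0.22. Its fall of 0.37 ± 0.08 lost its call without wild-type replicates 1 (-0.34) or 3 (-0.36) or mutant replicates 2 (-0.40) or 3 (-0.28), and its other probe gave -0.037. Of the PI3K, AKT and mTOR list, Pik3cd was the only member of 39 to pass. Among NF-kappaB, Toll-like receptor and chemokine genes, only Pf4 of 31 did. The interferon and class I presentation list had 1 of 39 higher and a median of 0.068; the member was Ifi27l2b, an interferon-induced membrane protein, at -0.40, -0.77 and -0.53 against 0.29, 0.19 and 0.25 (a rise of 0.81 ± 0.10, limma adjusted p = 0.000896).

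Fibrillar collagen and collagen-processing genes had 4 of 42 members higher and 1 lower (11.9% called), with a median of 0.039. Col1a1, a chain of type I collagen, stood at -4.37, -4.41 and -4.53 in the wild type and at -3.68, -3.42 and -3.90 in the mutant, far below the neonatal reference in both. It rose by 0.77 ± 0.11 (limma adjusted p = 0.00227), and its other probes gave 0.30 and 0.081. Col3a1, the type III collagen chain, stood at -4.58, -4.69 and -4.74 against -4.08, -3.91 and -4.18 and rose by 0.61 ± 0.08, while its dimmer probe gave 0.030. Sparc, a collagen-binding matrix protein, rose by 0.33 ± 0.06, a call that ended without wild-type replicate 3 or mutant replicate 2 (0.28 each) or with the mean of its probes (0.26). Postn, periostin of mesenchymal matrix, rose by 0.44 ± 0.10, a call that held without mutant replicate 3 but ended without each of the other 5 arrays (0.38 to 0.49). The member that fell was Emid1. Col1a1, Col3a1, Postn and Pdgfra are also 4 of the 11 tested mesoderm and mesothelium markers. None of the other tested ones passed: Col1a2 (0.46), Hand1 (0.28), Vim (0.22), Foxf1 (0.032), Pdgfrb (0.0042), Acta2 (-0.031) and Bmp4 (-0.12). Summed over all 12 markers of that list on the array, Cy5 intensity was 9822 to 11470 in the mutant against 8575 to 9127 in the wild type. The sum was 16210 to 18080 in the wild type at E9.5. Such a sum weighs bright members most, and it includes the 4 genes that rose, so it is not separate from their rises. The part that a larger share of mesodermal cells or a later stage has in these rises was not tested.

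Of the other matrix lists, basement membrane genes had 1 of 26 higher (Sparc). Sparc was also the 1 of 10 parietal endoderm markers that rose. That list's summed intensity, which includes Sparc, was 5263 to 5641 in mutant against 4630 to 4911 in wild-type samples. The part that the share of parietal endoderm has in these rises was not tested. Integrin and focal adhesion genes had none of 39 (lowest p, Itgb4, the hemidesmosomal beta-4 integrin, at 0.23 ± 0.06, limma adjusted p = 0.0918). Matrix proteases and inhibitors had 1 of 30 higher and 1 lower. Enpep, aminopeptidase A, which cleaves angiotensin II at the surface of absorptive epithelia, stood at -1.62, -1.76 and -1.69 against -1.08, -1.03 and -1.08 and rose by 0.63 ± 0.07 (limma adjusted p = 0.000259). Adam9, a membrane metalloprotease that sheds surface proteins, stood between -1.01 and -0.94 in the wild type and between -1.40 and -1.31 in the mutant and fell by 0.36 ± 0.05 (limma adjusted p = 0.0019). Both held without each of the 6 arrays in turn. Keratin, desmosome and tight junction genes had 1 of 49 lower and 1 higher. Krt7, a keratin of simple epithelia, stood at -0.46, -0.68 and -0.57 against -1.64, -1.52 and -1.02 and fell by 0.83 ± 0.16. Its call ended without wild-type replicates 1 (-0.77) or 3 (-0.82) or mutant replicates 1 (-0.70) or 2 (-0.76), and its other probe gave -0.58. Cldn5, the claudin of endothelial junctions, rose by 0.24 ± 0.05, a call that ended without any array other than wild-type replicate 2 (0.21 to 0.24). It was the 1 of 11 endothelial markers that rose.

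Of the plasma protein lists, coagulation genes had 2 of 34 higher, with a median of 0.058, and both held without each array. F2, prothrombin, stood at -2.35, -2.43 and -2.43 against -1.99, -1.92 and -1.84 and rose by 0.48 ± 0.06 (limma adjusted p = 0.000631). Cpb2, a carboxypeptidase that slows clot breakdown, stood at -2.82, -2.77 and -2.92 against -2.37, -2.37 and -2.38 and rose by 0.46 ± 0.06, with 0.46 from its other probe. Complement genes had 2 of 26 higher and 1 lower. C8a, a chain of the membrane attack complex, rose by 0.47 ± 0.08. Mbl2, a mannose-binding lectin that starts the cascade, stood at 0.72, 0.083 and 0.54 against 1.32, 1.06 and 1.40 and rose by 0.81 ± 0.15, a call that ended without mutant replicates 1 (0.78) or 3 (0.74). Masp2, the protease that partners such lectins, fell by 0.31 ± 0.06, a call that ended without wild-type replicate 1 (-0.28) or mutant replicates 1 (-0.29) or 2 (-0.30).

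Plasma carriers and protease inhibitors had 3 of 30 lower and none higher (10%, against 0.727% for falls), with a median of 0.0045. Ambp, the precursor of alpha-1-microglobulin and bikunin, stood at -3.19, -3.75 and -3.42 in the wild type and at -4.15, -4.22 and -4.31 in the mutant, and fell by 0.77 ± 0.11 (limma adjusted p = 0.00143). The other 2 were Serpinb1a and Serpinb6a, which are intracellular serpins and not plasma carriers. Serpinb6a stood at -0.97, -0.75 and -0.82 against -1.26, -1.36 and -1.35 and fell by 0.48 ± 0.07. None of the 15 visceral endoderm markers passed, and their mean log2 ratio ran from 1.60 to 1.80 in wild-type and from 1.71 to 1.80 in mutant samples.

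Absorptive functions were represented by transporters and brush border genes. Carriers of amino acids, organic ions and nucleosides had 4 of 40 members higher and 1 lower (12.5% called), with a median of 0.017. Slc22a6, an organic anion transporter, stood at 0.48, 0.0095 and 0.23 against 0.90, 0.77 and 0.88 and rose by 0.61 ± 0.10 (limma adjusted p = 0.00656), a call that held without each array. Slc22a4, the ergothioneine carrier, rose by 0.35 ± 0.06, a call that ended without wild-type replicate 1 (0.32) or mutant replicates 2 (0.32) or 3 (0.33). Slc36a1, a lysosomal amino acid exporter, rose by 0.32 ± 0.07, a call that ended without wild-type replicate 2 (0.23) or mutant replicates 1 (0.34), 2 (0.29) or 3 (0.32). Slc7a7, a basolateral carrier of cationic amino acids, rose by 0.29 ± 0.07 and its call held only without wild-type replicate 3 (0.22 to 0.29 without the others). The member that fell was Slc51a, by 0.91 ± 0.09 (limma adjusted p = 0.000121), with -0.43 from its other probe. Ion, metal and sugar carriers had none of 37 past the threshold (lowest p, Slc5a4b of the glucose transporter family, 0.24 ± 0.06, limma adjusted p = 0.0831).

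Brush border and endocytic receptor genes had 1 of 42 higher, the unconventional myosin Myo7a, by 0.24 ± 0.05, and lysosomal genes had 1 of 47 higher, the cathepsin Ctsb, by 0.32 ± 0.07. Both calls ended when any of the 6 arrays was left out (0.21 to 0.26 and 0.22 to 0.37), and the other probe of Ctsb gave 0.15. The autophagy and V-ATPase list had none of 38 (Uvrag, a Beclin 1 partner, -0.19 ± 0.06, limma adjusted p = 0.196), and lipoprotein and lipid transport genes had none of 39 (Lrp1, an endocytic lipoprotein receptor, -0.40 ± 0.10, limma adjusted p = 0.0814).

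Heat shock chaperones and cochaperones had 4 of 45 members lower and none higher (8.89%), with a median of -0.054. Hspa1a, the inducible Hsp70, stood at 0.66, -1.01 and 1.09 in the wild type and at -1.35, -2.00 and -1.90 in the mutant. It fell by 2.00 ± 0.43 (limma adjusted p = 0.0343), and its second probe gave -1.86. The lowest wild-type array was the heart-rich replicate 2, and the call ended when any other array was left out (-2.20 to -1.58). Dnajb1, its Hsp40 partner, stood at 1.38, 1.03 and 1.39 against 0.79, 0.70 and 0.71 and fell by 0.54 ± 0.12, a call that behaved in the same way (-0.56 to -0.47). Its dimmer other probe gave -0.17, and the call ended with the mean of its probes (-0.35). Hspb8, a small heat shock protein, fell by 0.43 ± 0.08, and its call ended without wild-type replicate 3 (-0.36) or mutant replicate 2 (-0.40). Bag3, the cochaperone that joins Hspb8 to Hsp70, fell by 0.31 ± 0.07, a call that ended without any array other than wild-type replicate 2 (-0.33 to -0.27) and with the mean of its probes (-0.20; other probe -0.097). At E9.5 Hspa1a differed by 0.98 ± 0.43 and Dnajb1 by 0.17 ± 0.12, and neither passed.

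Heat shock factor 1 binds inverted repeats of GAA, and the Hspa1a promoter is printed because that gene led the fall. Its 250 bases before the start site (RefSeq, GRCm38.p6, 5′ to 3′) have GAANNTTC or TTCNNGAA in capitals; each of these motifs is its own reverse complement.
Hspa1a, chr17:34972157-34972406, minus strand: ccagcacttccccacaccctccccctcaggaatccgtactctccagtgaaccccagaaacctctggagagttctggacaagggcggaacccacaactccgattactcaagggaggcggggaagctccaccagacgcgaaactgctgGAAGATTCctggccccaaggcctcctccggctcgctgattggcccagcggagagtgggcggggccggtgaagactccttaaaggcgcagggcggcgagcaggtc
The match began 104 bases before the start site. The 4 windows of Dnajb1, Hspb8 and Bag3 held none, and 10.2% of the 12535 windows of tested genes held at least 1.

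Of the ER folding and glycosylation list, 1 of 50 fell, and of the unfolded protein and amino acid stress list, 1 of 28. The member was the same, Herpud1, a part of the ER degradation machinery (a fall of 0.32 ± 0.07, whose call held without wild-type replicate 2 only and ran from -0.35 to -0.28 without the others). Chaperonin and prefoldin genes had none of 20 (Tbcc, a tubulin-folding cofactor, 0.19 ± 0.06, limma adjusted p = 0.14), and the proteasome had none of 43 (Psme2, an activator subunit, 0.17 ± 0.06, limma adjusted p = 0.239). Glutathione, thioredoxin and detoxification genes had none of 48 (Gss, glutathione synthetase, -0.28 ± 0.07, limma adjusted p = 0.0855). Among 26 immediate early genes, Jund, an AP-1 subunit, was nearest to the threshold at 0.39 ± 0.09 (limma adjusted p = 0.05).

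Among signalling pathways, single receptors and regulators changed, and the list medians lay between -0.035 and 0.011. FGF, EGF and MAP kinase genes had 1 of 37 higher and 1 lower. Fgfr4, the FGF receptor of endoderm and liver, stood between 0.54 and 0.68 in the wild type and between 0.99 and 1.11 in the mutant and rose by 0.45 ± 0.07 (limma adjusted p = 0.00543), a call that held without each array. Its 2 dimmer probes gave 0.014 and 0.22, and the call ended with the mean of its probes (0.23). Dusp4, a nuclear phosphatase that switches off ERK, fell by 0.38 ± 0.08, a call that ended without wild-type replicate 2 (-0.31) or mutant replicates 2 (-0.34) or 3 (-0.36), and its other probe gave -0.0017. VEGF, PDGF, angiopoietin and ephrin genes had 1 of 38 higher and 1 lower. Ephb2, an ephrin receptor, stood at 0.050, 0.27 and 0.15 against -0.13, -0.28 and -0.43 and fell by 0.44 ± 0.08, which moved to -0.30 and did not pass without the heart-rich and trophoblast-rich arrays together. Pdgfra, the receptor of mesenchymal cells for platelet-derived growth factor, rose by 0.37 ± 0.08, a call that ended without any array other than wild-type replicate 2 (0.32 to 0.39).

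Cdx2, a homeobox factor of posterior patterning and of intestinal endoderm, was the only member to pass in both the Wnt list (41 measured) and the Hox and Cdx list (18 measured). It stood at 0.93, 0.93 and 1.07 against 0.63, 0.53 and 0.53 and fell by 0.42 ± 0.07 (limma adjusted p = 0.00641), a call that held without each array. No member passed in the TGF-beta, BMP and activin list (46 measured; Acvr1, a BMP type I receptor, -0.19 ± 0.06, limma adjusted p = 0.195). The same held for Hedgehog and Hippo (37; Hhip, a hedgehog-binding antagonist, 0.23 ± 0.06, limma adjusted p = 0.076) and Notch (28; Dll4, an endothelial ligand, 0.20 ± 0.06, limma adjusted p = 0.181). Over those 3 lists and Wnt, 11.2% of 152 genes had an unadjusted p under 0.05, against 12.4% of all genes. Among endoderm transcription factors 2 of 32 rose, both of the Sox F group. Sox17, which specifies endoderm and haemogenic endothelium, stood at 0.31, 0.18 and 0.32 against 0.72, 0.54 and 0.71 and rose by 0.39 ± 0.08, with 0.38 from its other probe. Sox7, which is expressed in parietal endoderm and early vessels, rose by 0.28 ± 0.06. The call of Sox17 held only without mutant replicate 2 (0.34 to 0.41 without the others) and that of Sox7 only without wild-type replicate 1 (0.25 to 0.31). The other probe of Sox7 gave 0.16.

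Arid1a itself stood at -0.12, 0.040 and -0.016 in the wild type and at -0.093, 0.074 and 0.072 in the mutant, a difference of 0.05 ± 0.06 (limma adjusted p = 0.824). A point mutation need not change the level of its transcript, so this checks nothing about the genotype. None of the 24 measured SWI/SNF subunits passed, and their differences ran from -0.21 to 0.11 (lowest p, Smarce1, the BAF57 subunit, -0.21 ± 0.07, limma adjusted p = 0.207). Of 61 Polycomb, Trithorax and remodeller genes 1 rose, Dnmt3b, a de novo DNA methyltransferase, at 2.08, 2.14 and 1.95 against 2.43, 2.63 and 2.49. Its rise of 0.46 ± 0.10 lost its call without any array other than wild-type replicate 2 (0.40 to 0.50). Among 37 imprinted genes 2 rose, Dlk1, a Notch-like membrane protein, by 0.34 ± 0.08 and Tspan32, a blood cell tetraspanin, by 0.28 ± 0.06. The call of Dlk1 ended when any array was left out (0.29 to 0.39) and that of Tspan32 when any but mutant replicate 1 was (0.23 to 0.29). Their other probes gave 0.28 and 0.13, and Tspan32 was the only named gene to lose its call under the replicate block (limma adjusted p = 0.0503).

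Genes near Arid1a on chromosome 4 were counted separately. Of the 100 tested genes nearest to Arid1a, 1 rose and 5 fell, where 1.44% of all genes were called. Rpl11 was among them, and the others, named after their values were seen, were Pafah2 (-0.59 ± 0.08), Snhg3 (-0.47 ± 0.06), Aunip (-0.34 ± 0.08), Pnrc2 (-0.32 ± 0.07) and Paqr7 (0.38 ± 0.07). At E9.5 the 5 that fell at E8.5 also fell, by 0.46 to 0.88, and Paqr7 stood at 0.28 (limma adjusted p = 0.0796). Of all genes 1.08% fell at E9.5, but of the genes called at E8.5 43% passed there in the same direction. Over the whole chromosome 2.56% of 782 genes were called, against 2.77% of 506 on chromosome 15, which carries Csf2rb and Csf2rb2, and 0.244% of 409 on the X chromosome.

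Translation lists (cytoplasmic and mitochondrial ribosome, ribosome biogenesis and RNase P, initiation and elongation, aminoacyl-tRNA synthetases) held 266 genes with a median of 0.0021. Of these 2 fell, Rpl11 and Pop4, and 4.5% had an unadjusted p under 0.05, against 12.4% of all genes. Pop4, a protein of RNase P and MRP, stood at -0.70, -1.21 and -0.40 against -1.70, -1.82 and -1.80 and fell by 1.01 ± 0.23 (limma adjusted p = 0.0474). Its other probe gave -0.39, and its call ended without any array other than wild-type replicate 2 (-1.04 to -0.82). The spliceosome had 1 of 59 higher, Rbm6, an RNA-binding splicing regulator, at -0.64, -1.09 and -0.56 against 0.042, -0.095 and 0.00037, a rise of 0.75 ± 0.13 that held without each array. Nuclear pore and transport genes had 1 of 44 higher, Rcc2, a chromosome-condensation regulator of mitosis, by 0.63 ± 0.11, but its dimmer other probe gave 0.0089 (mean log2 intensity 9.54 against 10.9), and the call ended without wild-type replicate 3 (0.57).

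Exoc3l4, an exocyst-related protein, stood at 0.38, 0.15 and 0.34 against 1.01, 0.79 and 1.12 and rose by 0.68 ± 0.10 (limma adjusted p = 0.00378), 1 of 42 in the COPI, COPII and exocyst list. Dynlt1b, a dynein light chain of a multicopy family whose probes may read several copies, stood at -0.17, -0.63 and -0.46 against -1.25, -1.23 and -1.09. It fell by 0.78 ± 0.14, 1 of 39 in its list, and the call ended without wild-type replicate 1 (-0.65) or mutant replicates 1 (-0.75) or 2 (-0.76). Actomyosin and smooth muscle genes had none of 42 (Lima1, an actin cross-linker, 0.27 ± 0.06, limma adjusted p = 0.0526).

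Energy metabolism showed no change that passed, except in glycolysis. Respiratory complexes I to V, the citric acid cycle and fatty acid oxidation together held 150 genes, with differences of -0.25 to 0.28 and a median of 0.012. None passed, and 9 (6%) had an unadjusted p under 0.05. The 37 listed subunits of complex I alone stayed between -0.096 and 0.12. Glycolysis and pentose phosphate genes had 1 of 29 lower and a median of -0.054. That member was Pfkp, a phosphofructokinase isoform at the committed step, which stood at -0.49, -0.45 and -0.59 against -0.83, -0.83 and -0.73 and fell by 0.29 ± 0.06. Its call ended without wild-type replicates 1 (-0.28) or 2 (-0.26) or mutant replicates 1 or 2 (-0.27 each), and its other probes gave -0.25 and -0.0096. The list's median was -0.083, -0.11 and 0.011 within the 3 scans. Cholesterol synthesis had none of 28 (Stard4, a sterol carrier, 0.21 ± 0.08, limma adjusted p = 0.249).

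Proliferation and death lists had no member that passed. DNA replication (50 genes) and mitosis and cyclins (53 genes) had medians of 0.007 and 0.0046, and 12 of their 103 distinct genes (11.7%) had an unadjusted p under 0.05. Cdc25b, a phosphatase that starts mitosis, had the lowest p of the mitotic list (0.44 ± 0.12, limma adjusted p = 0.0855), and Rrm2, which makes deoxynucleotides, of the replication list (-0.24 ± 0.08, limma adjusted p = 0.158). Among 48 p53 targets and apoptosis genes it was Bmf, a BH3-only protein (0.28 ± 0.08, limma adjusted p = 0.0983). Over the 27 lists without a call, 92.6% of 1033 genes lay within 0.2 of 0. That is not particular to them, since the 5th and 95th percentiles of all genes tested were -0.17 and 0.18.

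The same genotypes were compared at E9.5. The group means there come from other arrays, but both comparisons share the fit's estimate of spread, the scans and the reference. Of the 99 genes that rose at E8.5, 90 lay above 0 at E9.5, and of the 101 that fell, 90 lay below 0, while 59.9% of all genes had the same sign at both stages. At E9.5 277 genes passed (1.99%), and 86 passed at both stages in the same direction, or 43% of the E8.5 and 31.1% of the E9.5 calls. Emid1 (-1.12 ± 0.09), Csf2rb (-1.06 ± 0.13), Rpl11 (-0.88 ± 0.06), Tmem145 (0.74 ± 0.06) and Enpep (0.84 ± 0.07) passed again at E9.5. Pf4 was at 0.28 ± 0.12, Col1a1 at 0.017 ± 0.11, Col3a1 at -0.012 ± 0.08 and Rbm6 at -0.25 ± 0.13 there, none of which passed.

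The difference between the stages was tested as an interaction, and no gene passed in limma (lowest adjusted p = 0.112; 795 genes had an unadjusted p under 0.05). For the E8.5 effect minus the E9.5 effect, Pf4 gave 0.98 ± 0.17, Rbm6 1.00 ± 0.18 and Col3a1 0.63 ± 0.11, each with a limma adjusted p of 0.162. Hspa1a gave -2.98 ± 0.61 (limma adjusted p = 0.266). These differences were not shown to depend on stage.

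**Figure D5:**
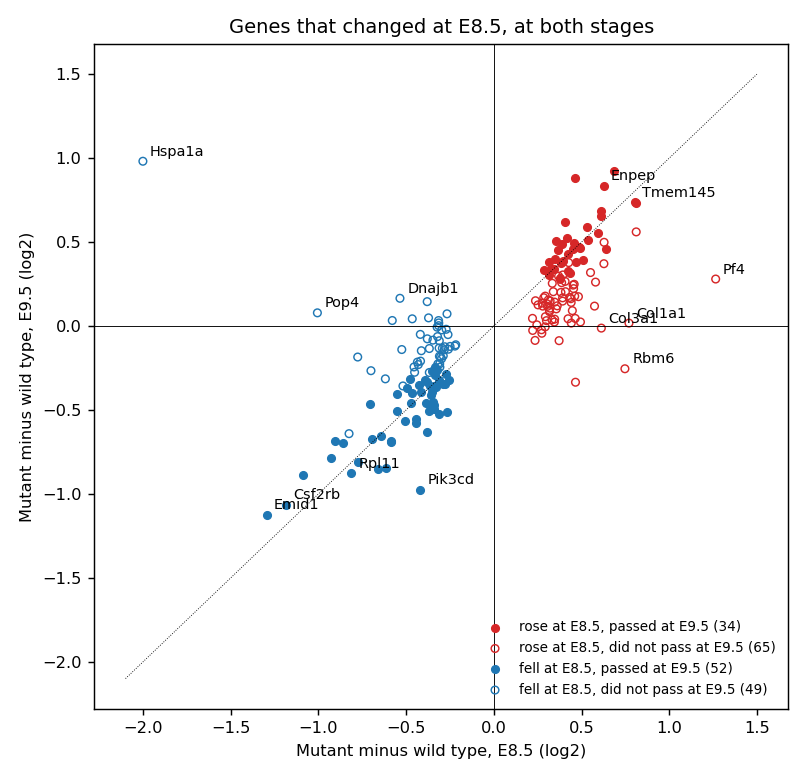
Difference between mutant and wild type at E8.5 (horizontal) and E9.5 (vertical), in log2, for the 200 genes that passed at E8.5, with rises in red, falls in blue, filled symbols for genes that also passed at E9.5 and a dotted line of equal values. Of the rises 90 of 99 lie above 0 at E9.5 and of the falls 90 of 101 below 0, and Hspa1a, Pf4, Col1a1 and Rbm6 lie far from the line.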

How the data were processed

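RNA of 12 yolk sac samples, amplified from 500 ng, was measured on 2-colour Agilent arrays. Per the file headers, Feature Extraction 9.5.1.1 gave, for each spot, mean and background intensity in both channels and a log10 ratio of Cy5 over Cy3 after dye normalization. The deposited flags mark spots well above background, saturated or outlying. The deposited table holds the authors' log2 ratios; set against the per-array files it was centred on each probe's median, with Cy5 over Cy3, and how it was filtered is not stated. Its column medians ran from -0.0061 to 0.004.

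From mean and background intensities, log2 ratios were computed in R 4.3.3 with limma 3.58.1: normexp (offset 50), loess within arrays (controls at weight 0), outlier spots and spots over 20 units below background set to missing, and replicate spots averaged. Probes well above background in Cy5 on all 3 arrays of a group were kept (20065), and each gene took its brightest probe (13894 genes, 12299 with an official symbol). Of 41174 probes, 23477 were named through RefSeq's gene table by accession, 6678 by symbol and 2891 by older symbol; 8128 kept the file's name. Limma fitted the 4 group means over 12 arrays (8 residual and 6.22 prior degrees of freedom), with Benjamini-Hochberg adjustment. Fitting was tested on simulated data.

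Named genes are the 15 largest rises and falls that passed with groups not overlapping, list members that passed, and the member of lowest p in lists without one. Some genes that the rule names are not reported here, though counts include them. Members and lists were chosen with earlier results of these data known, and lists got no set test. Same-numbered E8.5 arrays deviated together with r = 0.248, 0.301 and 0.0774, and differently numbered ones with r = -0.264 to 0.124. The main fit did not use the number as pairing. That number is also the scan set, which was fitted as a block in alternatives, where 291 and 298 genes passed. Alternatives covered normalization, filters, probe choice, the scan or replicate as a block, array weights, an Xist covariate, the deposited table and leaving out arrays.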

Additional observations from a re-analysis of the deposited data

How the results depend on the processing

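The count of genes that changed at E8.5 (200) fell to 10 with median centring in place of loess, to 25 with the Xist covariate and to 123 when the E8.5 arrays were fitted alone, and rose to 439 with array weights; the cause was not tested, beyond the fewer arrays of the separate fit. Leaving out 1 E8.5 array gave 93 to 204, and leaving out wild-type replicate 2 with mutant replicate 3, a setting chosen after seeing the data, gave 127. With the Feature Extraction log ratio, offset 10, no filter, the stricter filter, the mean of probes, the deposited table, the replicate block (291) or the scan as a random block (298), the count stayed within 1.5 times. The genes differed more than the count: 111 of the 200 passed with the Feature Extraction log ratio and 117 of 198 with the deposited table, and of 66 named genes 28, 26 and 16 lost their call with these and with the mean of probes, and 1 under the replicate block. Scaling between arrays with Aquantile keeps each array's ratios and so gives the same values by construction. The E9.5 count (277) was 173 with the Feature Extraction log ratio, 26 with median centring and 136 with the Xist covariate. For the genotype by stage difference (0), 1 gene passed with the replicate block, 1 with the scan as a random block, 7 with array weights, 1 without the heart-rich and trophoblast-rich arrays, and between 0 and 1 without single arrays. No named gene changed direction in any setting; 33 of 66 kept their call without each E8.5 array in turn, 7 kept it with median centring and 12 with the Xist covariate. Median centring moved the median of all genes to -0.089, and the list medians with it, so their signs are relative to that shift; the platelet and red cell lists stayed above 0 at 0.048 and 0.074. Of 69 changed genes with another measured probe, 68 had 1 of the same sign and 31 had 1 at least 50% as large.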
